A study of Mus musculus with 6 samples.

Results

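Histone genes encode the proteins around which DNA is wound. They were taken from the deposited gene table by symbol: every gene named by the H1f, H2ac, H2bc, H3c or H4c scheme, plus H2az1, H2az2, H2ax, H3f3a and H3f3b. The rule found 77 genes among 56691. By symbol, 64 were replication-dependent histone genes, 7 were variant histone genes (H2az1, H2az2, H2ax, H3f3a, H3f3b, H1f0 and H1f10) and 6 were germ line histone genes (H1f6, H1f7, H1f8, H1f9, H2ac1 and H2bc1). The rule used no measured value.

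The 6 RNA sequencing libraries came from a mouse macrophage line that the labels spell RAW246.7, genotype WT. All cells had been pretreated with lipopolysaccharide (LPS), a bacterial component that activates macrophages. They were then kept for 24 h on MSA-DA hydrogels (3 libraries) or on MSA-ZW hydrogels (3 libraries). The study asks how these gels, which differ in protein absorption, affect the cells, and cells without LPS or without a gel are not analysed here. The labels do not say that replicates were separate cultures, so p-values measure the spread between these libraries, which may be technical.

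Replication-dependent histone genes supply histones for newly made DNA. They lie mostly in clusters, and their messages are made in S phase. In place of a poly(A) tail, such a message normally ends just after a short stem-loop in the RNA, which the stem-loop binding protein holds. Variant (replacement) histone genes stand alone, are used throughout the cell cycle and give messages with a poly(A) tail. H3f3a and H3f3b encode the same protein, H3.3, while H2az1 and H2az2 encode forms of H2A.Z. H2ax, whose protein is phosphorylated around broken DNA, is known to give both a short stem-loop message and a longer polyadenylated one. H1f0 encodes the linker histone H1.0, known to accumulate in cells that stop dividing.

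Libraries held between 14374912 and 18346615 counts. Of the macrophage markers, 7 of 8 passed the filter on low counts and none was at 0 in all libraries. The lowest, Mertk, had 1 to 3 counts a library. Their summed level was 4477 to 4534 CPM (counts as a share of the library total, on the CPM scale) on MSA-DA, against 5230 to 5316 CPM on MSA-ZW. Not every marker moved with this sum. At an adjusted p below 0.05 by edgeR, 4 were lower and 1, Itgam, was higher on MSA-DA. Over all tested genes 6.5% were lower and 6.92% higher. Markers of fibroblasts, epithelial cells, and T and B cells each summed to at most 0.440 CPM in any library, and neutrophil markers to at most 1.77 CPM. The MSA-ZW libraries differed more among themselves than the MSA-DA libraries did. The ribosomal RNA-like gene Rn18s-rs5 stood at 1325 to 1415 CPM in the MSA-DA libraries and 2375 to 4485 CPM in the MSA-ZW libraries, with MSA-ZW replicate 2 the highest.

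The ends of the annotated messages are shown first, because the classes are known to differ in them. Sequences are from GENCODE M21 transcripts (build GRCm38, read on the strand of the gene), in which all 77 genes were matched by gene ID, and the longest coding transcript of each was searched. For 3 replication-dependent genes annotated as pseudogenes (H1f11-ps, H2ac14 and H2ac5-ps), the only, non-coding transcript was searched. The stem-loop searched for was 16 bases long: a 6-base arm starting with GG, a 4-base loop starting with TT, and the reverse complement of the arm. It was found in 41 histone genes, among them 39 of the 64 replication-dependent genes and H2ax, against 0.594% of 21901 protein-coding genes. That share counts any coding transcript of a gene and includes the histone genes. No match says only that these letters were not in the annotated transcript. The 41 stem-loops had 7 different sequences, of which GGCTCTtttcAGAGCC was the most frequent, in 23 genes. The following 4 stem-loops are shown because 3 belong to genes with enough counts to test and the last to a gene whose message ends 31 bases further on. Capitals mark the arms of the stem.
H2ax: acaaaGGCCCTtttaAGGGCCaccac
H1f2: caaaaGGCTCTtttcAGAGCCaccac
H4c9: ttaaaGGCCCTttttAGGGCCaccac
H4c18: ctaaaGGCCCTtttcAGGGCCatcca

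In H2ax the annotated transcript ran 822 bases past this element, in H1f2 840 bases and in H4c9 330 bases. In 21 other replication-dependent genes, H4c18 among them, it ended within 100 bases. The hexamers AATAAA and ATTAAA, which precede most poly(A) sites, were searched for in the last 50 bases on the same strand. Of all protein-coding genes, 77.9% had one in a coding transcript. The hexamer was found in 13 of the 64 replication-dependent genes and in 6 of the 7 variant genes. The longest H3f3b transcript lacked it, but another H3f3b transcript had it. The ends below are examples, picked from genes that have the hexamer and enough counts to test, and capitals mark the hexamer.
H2ax: ttttATTAAAggatcgtttggttttgtttt
H1f0: ttaaAATAAAactggaaaggaaaaaa
H3f3a: aaatAATAAAagtaccaatagaagaa
H1f2: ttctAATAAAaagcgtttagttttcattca
H4c9: ttacATTAAAagtattctatgctaa
H2bc21: tattAATAAAgttaccgattagtttc

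Nearly all histone counts came from variant genes. The 7 variant genes held 148120 counts over the 6 libraries, of which H3f3b had 79879, while the 64 replication-dependent genes together held 2267. The 6 germ line genes had no count in any library; at these depths 3 counts, the upper limit that a count of 0 allows, equal 0.164 to 0.209 CPM, covering counting error only. Levels of different genes are compared here in FPKM, which divides counts by exonic length and library total.

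H3f3b stood highest, at 261, 263 and 264 FPKM in the MSA-DA libraries and 285, 269 and 274 FPKM in the MSA-ZW libraries. H2az1, the main H2A.Z gene here, followed at 137, 146 and 140 FPKM on MSA-DA, against 143, 141 and 154 FPKM on MSA-ZW. The second H3.3 gene, H3f3a, had 73.5, 69.8 and 74.7 FPKM on MSA-DA, against 70.9, 70.7 and 73.5 FPKM on MSA-ZW. Each of these genes lay above the next in every library. The H1.0 gene, H1f0, had 58.3, 59.3 and 58.0 FPKM on MSA-DA, against 64.9, 63.5 and 64.8 FPKM on MSA-ZW. H2ax had 29.1, 27.1 and 28.8 FPKM on MSA-DA, against 34.1, 36.1 and 34.1 FPKM on MSA-ZW. Both remained below H3f3a, and H2ax below H1f0, in all libraries. The second H2A.Z gene, H2az2, was far below H2az1, at 4.04 ± 0.375 FPKM on MSA-DA, against 4.15 ± 0.813 FPKM on MSA-ZW (SD, n = 3 each). H1f10, which encodes the linker histone H1.10, had 2, 4 and 4 counts on MSA-DA, against 9, 7 and 7 counts on MSA-ZW. This lowest variant gene overlaps Gm5577 on the opposite strand, which had 3 to 11 counts a library, and whether counting used strand was not given in the sources used here.

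**Figure D1:**
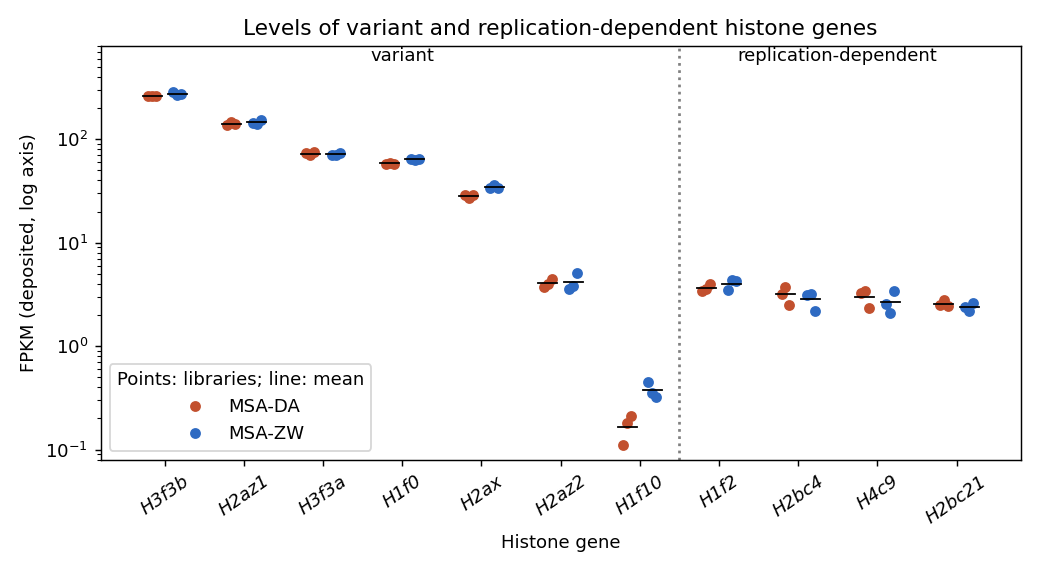
Deposited FPKM (log axis) of the 7 variant histone genes and the 4 replication-dependent genes with enough counts to test; points are libraries and lines are means of 3. H3f3b stands at 261 to 285 FPKM in all libraries, whereas no replication-dependent gene exceeds 4.39 FPKM.

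Among replication-dependent genes, 15 of 64 had no count in any library (2 of them annotated pseudogenes), 39 had 1 to 20 counts over all 6 libraries, 6 had 21 to 60 and 4 had more. Those 4 were H2bc21, H1f2, H2bc4 and H4c9, with 650, 600, 345 and 208 counts. H1f2, the linker histone H1.2 gene, had 3.43, 3.60 and 4.01 FPKM on MSA-DA, against 3.46, 4.39 and 4.23 FPKM on MSA-ZW. H2bc4, an H2B gene, had 3.19, 3.77 and 2.52 FPKM on MSA-DA, against 3.15, 3.17 and 2.19 FPKM on MSA-ZW. H4c9, an H4 gene, had 3.25, 3.45 and 2.35 FPKM on MSA-DA, against 2.58, 2.10 and 3.40 FPKM on MSA-ZW. H2bc21, another H2B gene, lay in the same range, at 2.58 ± 0.172 FPKM on MSA-DA, against 2.39 ± 0.205 FPKM on MSA-ZW (SD, n = 3 each). By their ranges over all 6 libraries, H1f2 lay above H2bc21, whereas H2bc4 and H4c9 overlapped both. The range of H2az2 overlapped those of H1f2 and H2bc4 and lay above those of H4c9 and H2bc21. Compared within each library, H1f2 was also above H4c9, and H2az2 above H2bc4, in all 6.

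The next replication-dependent genes by mean CPM were H2bc6 with 58 counts over 6 libraries, H2bc9 with 36, H1f3 with 32 and H3c15 with 22. H2ac8 and H2bc8 had 21 counts each, H2bc23 had 20 and H4c14 had 19. H2bc6 was thus the gene just outside the filter on low counts and H4c9 the gene just inside it. By family, 8 of 18 H2A genes had no count, as did 3 of 16 H2B, 2 of 12 H3, 1 of 12 H4 and 1 of 6 H1 genes. The H2B genes took 1170 of the 2267 replication-dependent counts, H1 genes 662, H4 genes 302, H3 genes 79 and H2A genes 54. Some zeros belong to genes whose annotated span lies within another gene on the same strand, as H3c14 does within Gm20634 and H2bc18 within Gm42743. Where reads match more than 1 histone gene, the counting rule was not given in the sources used here. A median of 53.3% of the 50-base stretches of the 60 untested genes also occur in another histone gene, against 18.7% for the 4 tested.

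Counts of replication-dependent genes differed with the annotated end of the message. The 21 genes whose transcript ended within 100 bases of the stem-loop had 0 to 18 counts each over the 6 libraries, with a median of 3 and 92 counts in all. The 18 genes whose transcript ran further had 0 to 600 counts, with a median of 18.5. Where no stem-loop was found, the 25 genes had 0 to 650 counts and a median of 2. Among the 13 genes with a poly(A) hexamer at the end, the median was 19 counts and 3 had at least 100 (H2bc21, H1f2 and H4c9). Among the other 51 the median was 3 counts, and H2bc4 alone had at least 100. These medians describe the annotation and were not tested. Annotated length moved with the same split, with medians of 1254 bases for the 13 genes and 488 bases for the 51. It also moved with the end at the stem-loop, with medians of 482 bases for the 21 genes and 1255 bases for the 18. A longer message gives more counts at an equal level, and these counts were not divided by length. The part of length in these medians was not tested.

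**Figure D2:**
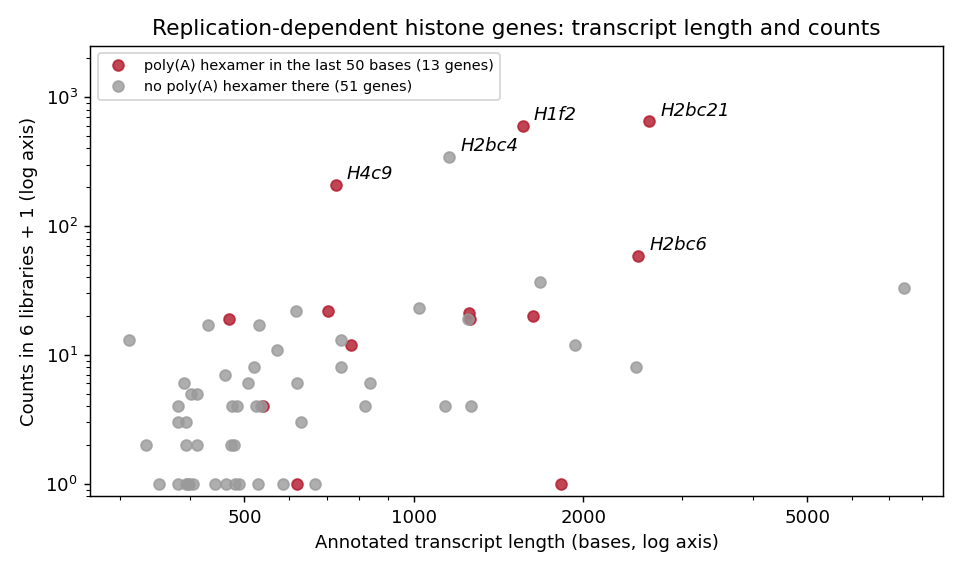
Counts over 6 libraries plus 1 against annotated transcript length for the 64 replication-dependent histone genes (both log axes), coloured by whether AATAAA or ATTAAA lies in the last 50 bases. The 4 genes with over 60 counts lie at 727 to 2620 bases, and 3 of them carry the hexamer.

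Whether poly(A) RNA was selected in making the libraries was not given in the sources used here. Of 10 listed genes for RNAs without a poly(A) tail, 4 had no count in any library. Rn18s-rs5, from the same list, was abundant, with the 1325 to 4485 CPM given above. Rn7sk, an abundant small nuclear RNA of cells, had 10, 10 and 12 counts on MSA-DA, against 8, 4 and 15 counts on MSA-ZW. The part of library preparation in the low replication-dependent counts was not tested.

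Between the gels, 2 variant histone genes fell on MSA-DA and no histone gene rose. H2ax was 1.22-fold lower and H1f0 1.09-fold lower, while the other tested genes did not pass the threshold. Differences were tested with edgeR over 12467 genes with Benjamini-Hochberg adjustment, and a gene was called at an adjusted p below 0.05. Of these genes 13.4% were called, 6.92% higher and 6.5% lower on MSA-DA. The filter on low counts passed 10 of the 77 histone genes, 6 of 7 variant and 4 of 64 replication-dependent. In bulk RNA, fewer cells making a message and less message per cell cannot be told apart.

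H2ax (ENSMUSG00000049932, GRCm39 chromosome 9, 44245991 to 44247374, plus strand) had 40.5, 37.6 and 40.0 CPM in the MSA-DA libraries, against 47.0, 50.01 and 47.1 CPM in the MSA-ZW libraries, on scaled library sizes. Every MSA-DA library lay below every MSA-ZW library. The log2 difference was -0.29 (SE 0.06, 95% interval -0.40 to -0.18), with an adjusted p of 0.000321 by edgeR with Benjamini-Hochberg adjustment. The median size of the difference over all called genes was 0.18 on the log2 scale. With an offset for GC content and length, the H2ax difference was smaller, at -0.21, with an adjusted p of 0.0069 by edgeR.

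H1f0 (ENSMUSG00000096210, chromosome 15, 78912650 to 78914704, plus strand) had 120.3, 122.2 and 119.6 CPM in the MSA-DA libraries, against 132.9, 130.6 and 132.8 CPM in the MSA-ZW libraries. The groups did not overlap here either, and the spread within each was small, with SDs of 1.33 CPM on MSA-DA, against 1.34 CPM on MSA-ZW. The log2 difference was -0.13 (SE 0.03, 95% interval -0.20 to -0.06), with an adjusted p of 0.00819 by edgeR with Benjamini-Hochberg adjustment. With limma on log2(FPKM + 1), the H1f0 call was lost, at an adjusted p of 0.0623.

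H3f3b (ENSMUSG00000016559, chromosome 11, 115912738 to 115918788, minus strand) had 780.9, 786.1 and 789.0 CPM in the MSA-DA libraries, against 845.4, 801.8 and 812.3 CPM in the MSA-ZW libraries. These groups were also separate, by a narrow gap and with the MSA-ZW libraries more spread. The log2 difference of -0.06 (SE 0.02, 95% interval -0.11 to -0.01) did not pass, at an adjusted p of 0.0868 by edgeR with Benjamini-Hochberg adjustment. It did pass with an offset for GC content and length, at a log2 difference of -0.11 and an adjusted p of 0.000394. Leaving out MSA-ZW replicate 2 or 3 gave adjusted p-values of 0.0417 and 0.0302 in edgeR. In all, 3 of the 6 tested variant genes had separate groups with MSA-DA below, as did 13.7% of all tested genes; groups were separate in either direction for 28.4%.

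**Figure D3:**
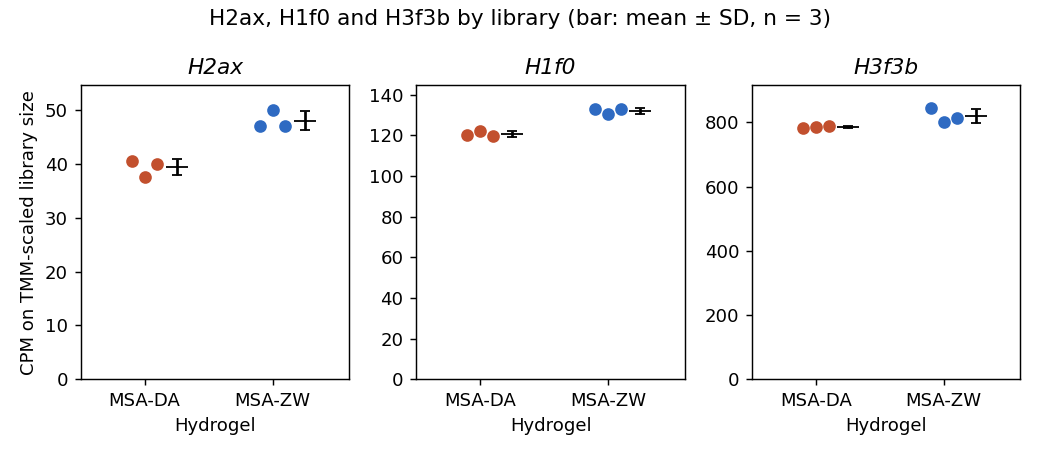
CPM on scaled library sizes of H2ax, H1f0 and H3f3b in each library (points) with mean and SD (bars, n = 3), MSA-DA at the left of each panel. All MSA-DA libraries lie below all MSA-ZW libraries for the 3 genes, by the widest relative margin for H2ax.

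The other H3.3 gene and both H2A.Z genes overlapped between the gels. H3f3a averaged 256 ± 8.90 CPM on MSA-DA, against 251 ± 5.21 CPM on MSA-ZW (SD, n = 3 each), a log2 difference of 0.03 with a 95% interval of -0.04 to 0.09. The offset for GC content and length turned its sign, to -0.03. H2az1 averaged 251 ± 7.69 CPM on MSA-DA, against 259 ± 12.1 CPM on MSA-ZW, with an interval of -0.11 to 0.02 for the log2 difference. H2az2, with few counts, averaged 6.63 ± 0.617 CPM on MSA-DA, against 6.78 ± 1.32 CPM on MSA-ZW, and its interval was wider, -0.32 to 0.25. H3f3b gave 75.5% ± 0.650 of the H3.3 counts on MSA-DA, against 76.6% ± 0.693 on MSA-ZW. H1f10 was too low to pass the filter; without the filter its log2 difference was -1.10 (SE 0.67), with an adjusted p of 0.476 by edgeR with Benjamini-Hochberg adjustment, and its counts did not overlap between the gels.

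None of the 4 tested replication-dependent genes was called in either direction by edgeR or limma. DESeq2 gave them no adjusted p and so could not call them. None had an unadjusted p below 0.05 in edgeR, DESeq2 or limma. H1f2 had 5.38, 5.63 and 6.28 CPM on MSA-DA, against 5.38, 6.86 and 6.58 CPM on MSA-ZW. H2bc21 had 6.64, 7.28 and 6.41 CPM on MSA-DA, against 6.22, 5.75 and 6.80 CPM on MSA-ZW. The groups overlapped for both genes, with log2 intervals of -0.40 to 0.16 for H1f2 and -0.15 to 0.38 for H2bc21. H2bc4 averaged 3.67 ± 0.730 CPM on MSA-DA, against 3.27 ± 0.651 CPM on MSA-ZW, with a log2 interval of -0.23 to 0.58. H4c9 averaged 2.202 ± 0.429 CPM on MSA-DA, against 1.96 ± 0.475 CPM on MSA-ZW, with a log2 interval of -0.36 to 0.68. These intervals hold the H2ax difference of -0.29 for H1f2 and H4c9 but not for H2bc21 and H2bc4.

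**Figure D4:**
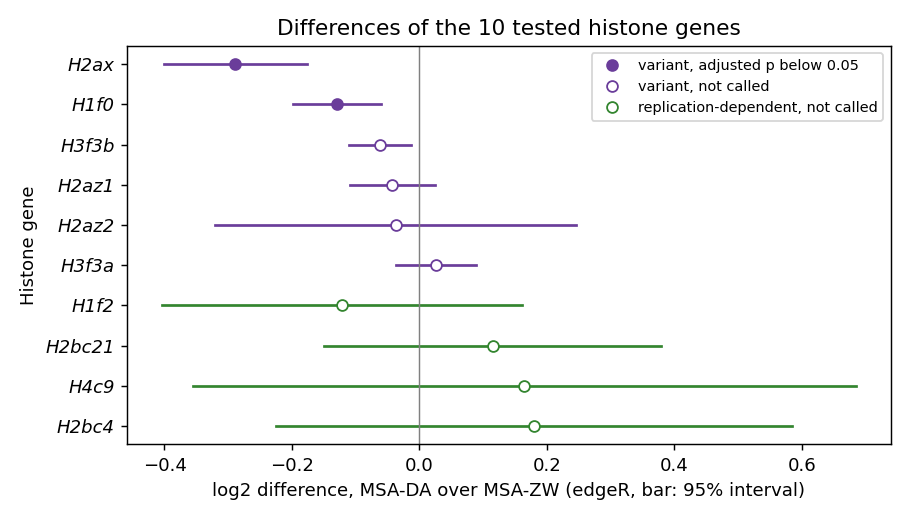
The log2 difference, MSA-DA over MSA-ZW, of the 10 tested histone genes, with 95% intervals from edgeR; filled points passed the threshold. H2ax at -0.29 and H1f0 at -0.13 are the filled points, and the 4 replication-dependent genes have intervals that span 0.

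Summed over the class, replication-dependent genes took 22.9, 23.9 and 21.5 CPM of the library totals on MSA-DA, against 22.4, 22.4 and 23.3 CPM on MSA-ZW. The groups overlapped, and the log2 ratio of the means was 0.01. The 60 genes too low to test summed to 4.43 ± 0.377 CPM on MSA-DA, against 4.90 ± 0.287 CPM on MSA-ZW (SD, n = 3 each), also overlapping. Variant genes summed to 1444, 1452 and 1464 CPM on MSA-DA, against 1538, 1486 and 1534 CPM on MSA-ZW. Each MSA-DA sum was below each MSA-ZW sum, with a log2 ratio of -0.06. No p is given for these sums, since the members were chosen with earlier results known.

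The balance of the classes overlapped between the gels. Variant genes had 63.1, 60.7 and 68.1 counts for each replication-dependent count on MSA-DA, against 68.8, 66.2 and 66.0 on MSA-ZW. Of H1 counts, variant genes gave 95.5, 95.3 and 94.3% in the MSA-DA libraries, against 95.6, 94.4 and 95.03% in the MSA-ZW libraries. For H2A the variant share was 99.8% on both gels, and for H3 it was 99.9% on both. H2B and H4 had no variant gene in the set. Their replication-dependent genes summed to 12.1 ± 1.13 CPM on MSA-DA, against 11.4 ± 0.384 CPM on MSA-ZW for H2B, and to 3.21 ± 0.792 CPM on MSA-DA, against 2.86 ± 0.594 CPM on MSA-ZW for H4, with overlap in both families.

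Genes that make and end replication-dependent messages did not pass the test. All 20 listed genes were tested and 0 were called, with 3 at an unadjusted p below 0.05 by edgeR, 1 by DESeq2 and 0 by limma; DESeq2 and limma also called 0. Their median log2 difference was -0.01, against 0.00 over all tested genes. Slbp, the stem-loop binding protein gene, averaged 82.3 ± 2.58 CPM on MSA-DA, against 81.9 ± 3.09 CPM on MSA-ZW. Npat, whose protein activates histone genes at entry into S phase, averaged 77.9 ± 0.496 CPM on MSA-DA, against 75.7 ± 1.89 CPM on MSA-ZW. Casp8ap2, also called FLASH and part of the 3' processing machinery, averaged 71.3 ± 2.16 CPM on MSA-DA, against 69.3 ± 3.71 CPM on MSA-ZW. Npat libraries did not overlap between the gels, whereas those of Slbp and Casp8ap2 did. Of the 20 genes, 4 had groups that did not overlap, against 28.4% over all tested genes. Srrt, which acts with the cap-binding complex, was called higher with the GC content and length offset, at an adjusted p of 0.000699 by edgeR, and without MSA-ZW replicate 3, at 0.0221.

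Of 26 listed genes for histone chaperones and deposition, 1 rose and 2 fell, against 6.92% higher and 6.5% lower over all tested genes, and the median log2 difference was -0.01. Nap1l1, an H2A-H2B chaperone gene, averaged 710 ± 8.78 CPM on MSA-DA, against 662 ± 13.2 CPM on MSA-ZW, with an adjusted p of 0.00491 by edgeR with Benjamini-Hochberg adjustment. Asf1b, an H3-H4 chaperone gene, averaged 58.4 ± 3.46 CPM on MSA-DA, against 65.9 ± 4.10 CPM on MSA-ZW, with an adjusted p of 0.0193 in edgeR. Ep400, the ATPase of a complex that deposits H2A.Z, averaged 153 ± 3.71 CPM on MSA-DA, against 165 ± 5.90 CPM on MSA-ZW, with an adjusted p of 0.0316 in edgeR. The groups did not overlap for 6 of the 26 genes, these 3 among them, against 28.4% over all tested genes. Each of the 3 genes lost its call in some fits. Nap1l1 lost it without MSA-DA replicate 2 (0.0901) or MSA-ZW replicate 2 (0.0513), Asf1b without MSA-DA replicate 3 (0.151) or MSA-ZW replicate 1 (0.135), and Ep400 without MSA-DA replicate 2 or 3 (0.09997 and 0.129) or MSA-ZW replicate 1 or 2 (0.0935 and 0.123), all edgeR adjusted p-values. The limma fit called none of the 3, DESeq2 neither Asf1b (0.0807) nor Ep400 (0.0856), and the GC content and length offset neither Nap1l1 (0.551) nor Ep400 (0.333).

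S phase genes were counted beside the histone genes because replication-dependent histones are made then. Of 23 listed genes, all tested, 6 fell on MSA-DA and 0 rose, against 6.5% lower and 6.92% higher over all tested genes. The median log2 difference of the list was -0.05. Uhrf1, which reads hemimethylated DNA, averaged 185 ± 5.34 CPM on MSA-DA, against 209 ± 4.70 CPM on MSA-ZW, with an adjusted p of 0.000165 by edgeR with Benjamini-Hochberg adjustment. Rrm1, the large subunit of ribonucleotide reductase, averaged 451 ± 3.30 CPM on MSA-DA, against 493 ± 9.21 CPM on MSA-ZW, with an adjusted p of 0.000641 in edgeR. The other 4 were Mcm2, Mcm5, Mcm6 and Mcm7, of the replicative helicase. DESeq2 also called 6 lower, and the other edgeR fits, with all libraries or 1 left out, called 6 to 8 lower. None of these fits called a listed gene higher. limma on log2(FPKM + 1) called none of the 23, with 8 at an unadjusted p below 0.05. The groups did not overlap for 12 of the 23 genes, against 28.4% over all tested genes. The summed level of the list was 4243 to 4278 CPM on MSA-DA, against 4436 to 4511 CPM on MSA-ZW, separate in the same direction as H2ax. The part of these genes in the H2ax difference was not tested.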

How the data were processed

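RNA from 6 libraries was measured, 3 per gel, grouped by their titles. Per the submitters' processing notes, the tools were HISAT2 2.2.1, cutadapt 1.9.1 and bcl2fastq 2.20.0.422, and the build was GRCm39. What counted the reads, with which strand rule and annotation, was not given in the sources used here. Raw counts and FPKM for 56691 genes were deposited by the authors, per the file headers. The deposited FPKM equal the count divided by exonic length and library total, to rounding.

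Counts were tested with edgeR 4.0.16 (quasi-likelihood, group alone in the model, TMM scaling, filterByExpr with a minimum count of 10) under R 4.3.3, with Benjamini-Hochberg adjustment over all 12467 tested genes. CPM of single genes use TMM-scaled library sizes, and summed CPM use plain totals. The standard error is the log2 difference divided by the square root of F. Alternatives were DESeq2 1.42.0, RLE size factors, no filter, a GC content and length offset, a replicate block, each library left out, and limma 3.58.1 on log2(FPKM + 1) restricted to genes reaching an FPKM of 1 in 3 libraries, a scale that understates changes of low genes. The main types of fit were also run on counts simulated from edgeR's own fitted levels and spread. Both groups had equal spread there, so this cannot test the uneven spread of the MSA-ZW libraries. Every pair of libraries differed by more than sampling noise.

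Transcript ends come from GENCODE M21 (GRCm38), and coordinates are the deposited GRCm39 ones. The members and gene lists were chosen with earlier results of these data known. Named were all 7 variant genes, the 12 replication-dependent genes with the highest mean CPM, every called member, Slbp, Npat, Casp8ap2 and called list members, at most 4 per direction. Itgam, Mertk, Srrt, Mcm2 and Mcm5, genes in counts of overlap and genes shown for their sequence were named after their values were seen.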

Additional observations from a re-analysis of the deposited data

How the results depend on the processing

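Under 7 other fits and 6 fits with 1 library left out, 0 replication-dependent genes were called in either direction and 0 variant genes higher on MSA-DA. DESeq2 gave no adjusted p for the 4 tested replication-dependent genes or for H2az2, so it could not call them. The count of variant genes called lower was 2, and 2 to 3 in the others except limma on log2(FPKM + 1), where it was 1; it was 2 to 3 with 1 library left out. H2ax passed in all 13, with log2 differences of -0.31 to -0.21 and adjusted p-values of 4.46e-05 to 0.0307. The summed ratios were recomputed under settings of their own, apart from these fits. They used TMM-scaled library sizes, totals without mitochondrial genes and Rn18s-rs5, sums without the most abundant gene of the class, or 1 library left out. Under these the summed variant ratio ranged from -0.08 to -0.05 on the log2 scale and the replication-dependent one from -0.04 to 0.05. Over all genes, 1673 were called with edgeR, 943 with DESeq2, 403 of 10874 with limma, and with edgeR 1001 without MSA-DA replicate 2 and 1065 without MSA-DA replicate 3.

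Deviations of same-numbered libraries had correlations of 0.008, 0.005 and -0.006, so the numbers were not taken to pair the samples. With the replicate number as a block, 2 variant genes were called lower, at adjusted p-values of 0.00098 for H2ax and 0.0129 for H1f0, while H3f3b stood at 0.104 (edgeR).

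Of the 64 replication-dependent genes, 60 had counts too low to test, and the intervals of the other 4 were wide.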

Other observations

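Further histone variants outside the symbol rule did not pass the test. Of 7 listed, 6 were in the table and 4 were tested, with 0 called and 0 at an unadjusted p below 0.05 by edgeR, DESeq2 or limma. Macroh2a1, whose macroH2A protein marks silent chromatin, averaged 146 ± 0.849 CPM on MSA-DA, against 145 ± 1.33 CPM on MSA-ZW (SD, n = 3 each). Cenpa, the centromeric H3, averaged 66.6 ± 1.09 CPM on MSA-DA, against 67.2 ± 0.468 CPM on MSA-ZW. H2aj, an H2A variant gene, averaged 16.5 ± 0.940 CPM on MSA-DA, against 15.9 ± 1.21 CPM on MSA-ZW. Macroh2a2 was near the filter, with 7, 12 and 12 counts on MSA-DA, against 7, 14 and 17 counts on MSA-ZW. The 95% interval of the log2 difference was -0.05 to 0.08 for Macroh2a1 and -0.10 to 0.07 for Cenpa, narrower than for any tested replication-dependent gene.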
